A study of Bos taurus with 30 samples.

Results

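The adiponectin gene ADIPOQ, identifier ENSBTAG00000019813, was followed as 1 gene of the 24596 listed for visceral adipose tissue. The pairing of this identifier with the symbol was taken as given and was not checked against a table. The row was chosen by its identifier, with earlier results of these data known, and its level, its spread within each diet, its rank among all genes and the calves at its extremes were described. Tissue was taken from the omentum of Angus × Holstein-Friesian heifer calves at 21 weeks of age, with 1 RNA-seq library per calf. High plane (HI, n = 15) calves were offered 10 litres of milk replacer per day in the calf phase and concentrates ad libitum for a target gain of 1.2 kg/day, and moderate plane (MOD, n = 15) calves 4 litres and 1 kg of concentrates for 0.5 kg/day. The calves of both groups were crossbred heifers and had hay to appetite after weaning. Allocation was within blocks of age, bodyweight and sire, which are not given per calf.

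Adiponectin is a hormone made almost entirely by adipocytes. It is folded and linked by disulphide bonds into multimers in the endoplasmic reticulum, circulates at high concentration, and acts through the receptors ADIPOR1 and ADIPOR2, with T-cadherin binding the larger multimers. Its receptors are known for activating AMP-activated kinase and PPAR alpha in liver and muscle, which favours fatty acid oxidation and insulin sensitivity. Transcription of the gene depends on PPAR gamma and C/EBP alpha, the regulators of adipocyte differentiation. Unlike leptin, adiponectin in blood is usually low where fat stores are large. The question asked of the gene was whether its level in the omental fat of these calves differed with the plane of nutrition.

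ADIPOQ was among the genes with the most reads in every calf, and its level was lower in HI than in MOD calves. The value in each library is the number of reads on the gene per 1000000 counted reads, scaled between libraries by the TMM method (TMM-normalized CPM). Over the 30 calves it averaged 9974 ± 2206 (SD, n = 30), far above the 100 that would mark a gene of low abundance. In HI calves the lowest value was 6538, the median 8613 and the highest 11879. In MOD calves the lowest value was 6829, the median 10931 and the highest 14919. All but 1 of the HI calves lay below 10000 and all but 3 of the MOD calves lay above it, so the diets were displaced from each other but overlapped.

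HI calves had a mean value of 8588 ± 1309 (SD, n = 15) and MOD calves one of 11361 ± 2060 (SD, n = 15), which made HI 24.4% lower. Of the 15 HI calves 14 were below the MOD median, and of the 15 MOD calves 14 were above the HI median. In 199 of the 225 possible pairs of 1 HI with 1 MOD calf, the HI calf had the lower value. The difference in the mean of log2(value + 0.5) was -0.39 (p = 0.00029 in a two-sided permutation test of 100000 resamples). The values are relative to the other reads of each library. Fewer adipocytes in the tissue, less ADIPOQ RNA per adipocyte and more RNA of other genes cannot be told apart in these bulk libraries.

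**Figure D1:**
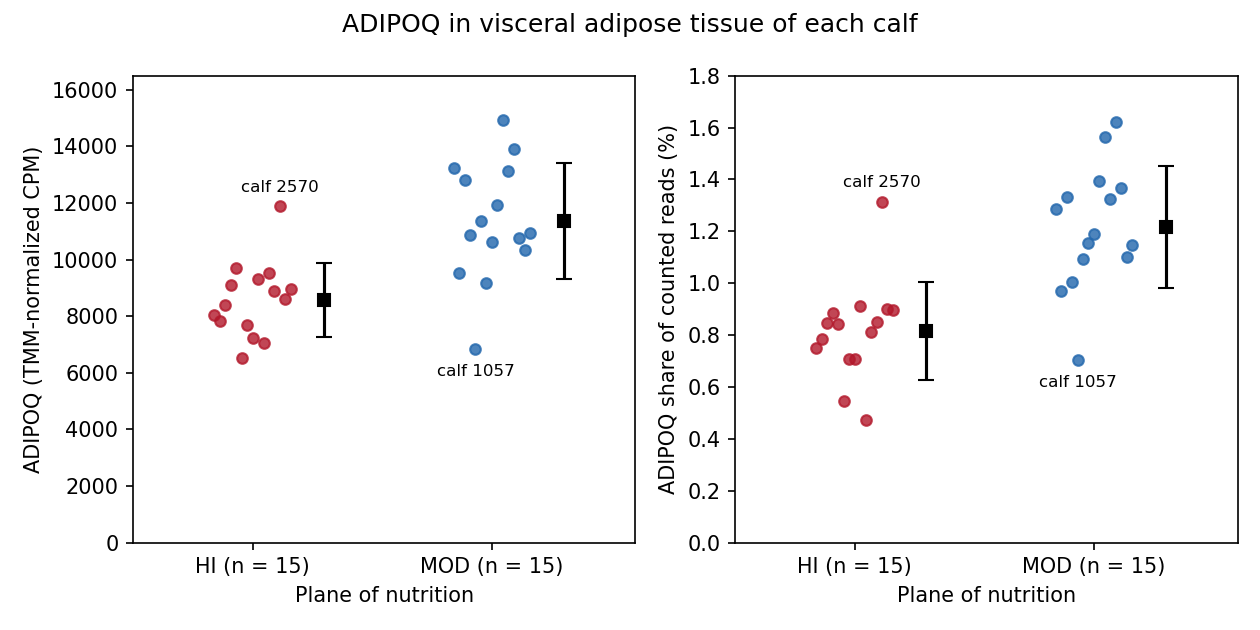
Level of ADIPOQ in each calf by plane of nutrition, as TMM-normalized CPM (left) and as percent of counted reads (right). Each point is 1 calf, and black squares and bars are the mean and SD of 15 calves. Most HI calves sit below most MOD calves, with HI calf 2570 (11879) and MOD calf 1057 (6829) on the other side.

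In the fit across all 12738 genes tested, ADIPOQ passed the threshold on the adjusted p-value but not the one on the size of the change. Its log2 fold change was -0.39 (standard error 0.12, 95% interval -0.64 to -0.15), an adjusted p of 0.025 (limma, Benjamini-Hochberg adjustment over all genes tested). With no filter on low values, over 19170 genes, the fold change was the same but the adjusted p was 0.198, past neither threshold. On the linear scale this was 1.31-fold lower in HI calves, with an interval from 1.11-fold to 1.56-fold, against the fold change of 1.5 that the study required of a differentially expressed gene. An adjusted p under 0.05 at any fold, with the lower level in HI, was met by 858 genes (6.74% of those tested), and 277 of them had a smaller change than ADIPOQ. Both thresholds were passed by 856 genes (6.72%), 556 higher in HI (4.36%) and 300 lower (2.36%). The median change of all genes tested was -0.02 on the log2 scale.

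**Figure D2:**
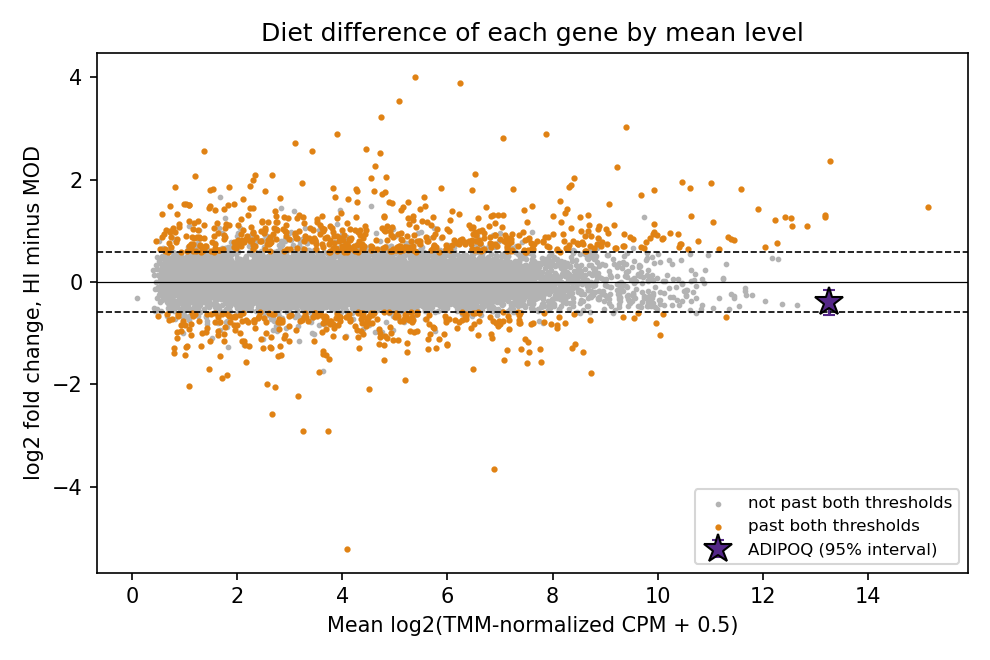
Log2 fold change (HI minus MOD) of each of 12738 genes against its mean log2 level, with genes past both thresholds in orange and dashed lines at a fold change of 1.5. ADIPOQ (star, with its 95% interval) lies at -0.39, between the lower line and 0, near the right-hand end of the levels.

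The size of the difference was alike under TMM, DESeq2 size factors and upper quartile scaling, and larger with no such factor. In place of TMM, DESeq2 size factors gave a log2 fold change of -0.38 and upper quartile scaling -0.40 (limma, adjusted p = 0.030 and 0.026). As a plain share of counted reads, with no TMM factor, ADIPOQ took 0.816% ± 0.189 (SD, n = 15) of the reads of HI calves and 1.22% ± 0.235 (SD, n = 15) of those of MOD calves (two-sided permutation test, p = 4e-05). The share ran from 0.474% (95% Wilson interval 0.471% to 0.477%) in HI calf 2120 to 1.31% in HI calf 2570, and from 0.703% in MOD calf 1057 to 1.62% in MOD calf 2532. The HI calf was the lower in 204 of the 225 pairs on this measure.

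With library size alone in place of TMM the log2 fold change of ADIPOQ was -0.59 (limma, adjusted p = 0.0020), 1.50-fold lower in HI and just past the fold threshold. HI calves had a mean TMM factor of 0.942 ± 0.104 (SD, n = 15), against 1.07 ± 0.103 (SD, n = 15) for MOD calves. The 10 most abundant genes of a library took 16.5% ± 3.28 (SD, n = 15) of the reads of HI calves and 10.3% ± 2.90 (SD, n = 15) of those of MOD calves. This scaling also moved the median of all genes by -0.18 and turned the balance of genes past both thresholds, from 556 higher and 300 lower in HI to 351 higher (2.76%) and 779 lower (6.12%), 8.87% of the genes tested in all. Relative to the median gene the change of ADIPOQ was -0.38 with TMM and -0.39 with library size alone. A change of scaling moves all genes of a library alike, so this closeness is nearly built in and is no check of the difference.

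Reads on ADIPOQ, recovered as whole numbers, ranged from 91845 to 264979 per calf, of 11847883 to 19383275 reads counted. At such numbers the counting error of 1 library was between 0.194% and 0.330% of the value, which covers counting only. The coefficient of variation between calves was 15.2% in HI and 18.1% in MOD calves, many times the counting error.

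ADIPOQ varied less from calf to calf than the median gene. The highest value was 1.82 times the lowest in HI calves and 2.18 times in MOD calves. The SD of log2(value + 0.5) was 0.21 in HI and 0.28 in MOD calves, where the median gene tested had 0.44 and 0.40. Among the 100 most abundant genes, 6 had a smaller SD than ADIPOQ in HI and 10 in MOD calves. The spread was not shown to differ between the diets, with a ratio of HI to MOD of 0.765 (two-sided permutation test on the distances from the diet median, p = 0.525). That ratio turned with the scaling and with 1 calf. Library size alone gave a log2 ratio of 0.17, and leaving out MOD calf 1057 gave 0.05, against -0.39 with all calves and TMM.

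No calf stood apart from its diet in ADIPOQ by more than 3.5 scaled median absolute deviations, and the farthest were HI calf 2570 at 2.32 and MOD calf 1057 at -2.31. Calf 2570 was the highest HI calf at 11879, with the next at 9696, and lay above the MOD median. Without it the coefficient of variation of HI calves was 11.7%. Calf 1057 was the lowest MOD calf at 6829, and only HI calf 1360 at 6538 was lower among all 30. The other MOD calves began at 9178, so that calf 1057 lay inside the HI range and below the HI median. With each of the 30 calves left out in turn, the log2 fold change stayed between -0.45 (without calf 1057) and -0.36 (without MOD calf 1690), and the adjusted p between 0.0075 and 0.045 (limma).

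A few libraries stood apart from the others over all genes, on the first principal component of the log2 values of the other genes. HI calf 2120 scored 167, MOD calf 975 scored 88.8 and MOD calf 911 scored 49.5. Their ADIPOQ values were 7069, 9529 and 13254, each within the range of its diet. Without these 3 calves the log2 fold change was -0.37 (limma, adjusted p = 0.029), close to that with all calves.

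ADIPOQ held a lower place among all genes in HI than in MOD calves. Genes were ranked in each library by their reads, without correction for transcript length, so that the rank says how much of the library a gene fills and not how many transcripts it has. The lowest, median and highest ranks were 2, 7 and 16 in HI and 1, 2 and 8 in MOD calves, where 1 is the gene with the most reads. MOD calf 2537 had ADIPOQ as its first gene, and 8 of the 15 MOD calves had it second. The rank averaged 8.33 ± 3.75 over the HI calves (SD, n = 15) and 3 ± 1.89 over the MOD calves (SD, n = 15), and the mean log2 rank differed by 1.53 (two-sided permutation test, p = 4e-05). HI calf 2570 had rank 2 and MOD calf 1057 rank 8, again on the side of the other diet.

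Ranked by the mean value of each diet, ADIPOQ was the second gene in MOD and the ninth in HI calves. Ahead of it were 8 genes in HI and 1 in MOD. The 8 had higher means in HI, with log2 fold changes from 1.10 to 2.36, which their choice by a high level in HI partly fixes. At its MOD mean of 11361, ADIPOQ would have had rank 5 among the HI means, and at its HI mean of 8588, rank 3 among the MOD means. Over all 30 calves it had rank 5 by mean value, and it was the most abundant of the genes that were lower in HI, since the 4 genes ahead of it were all higher. Of the 100 most abundant genes, 33 were higher and 3 lower past both thresholds, against 4.36% and 2.36% of all genes tested. A more negative change than that of ADIPOQ was found in 15 of the 100, against 7.85% of all genes tested.

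**Figure D3:**
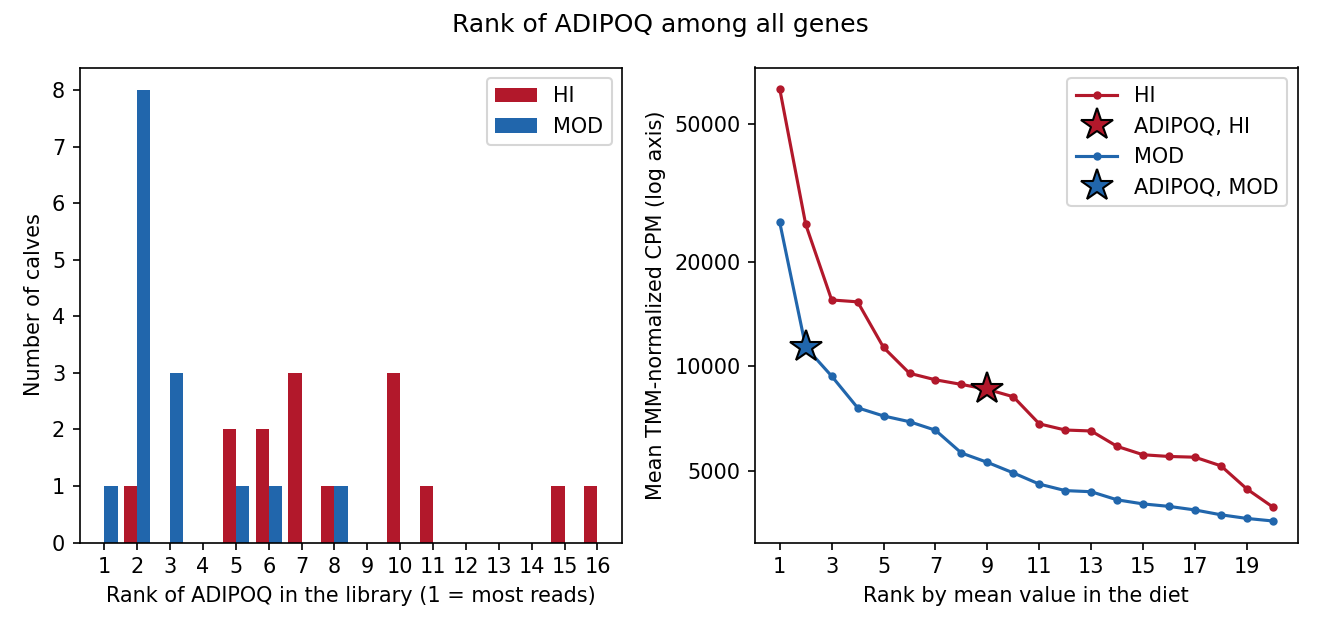
Left, number of calves with ADIPOQ at each rank within its library (1 = most reads), by diet. Right, mean TMM-normalized CPM (log axis) of the 20 first-ranked genes of each diet, with ADIPOQ as a star at rank 9 of HI and rank 2 of MOD. Nearly all MOD calves lie at ranks 1 to 6, and HI calves spread from rank 2 to 16.

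Within the diets, whether ADIPOQ moved with a measure of the libraries depended on the scaling. The level was set against reads counted, the TMM factor and the first 2 principal components of the other genes, over both diets with diet means subtracted and in each diet, 12 relations in all, and with TMM none had an adjusted p under 0.05 (permutation tests of 100000 resamples). With library size alone 4 of the 12 did, those with the TMM factor (adjusted p = 0.00165 over both diets and 0.00084 in HI calves) and with the second component (0.00144 and 0.00165). Values scaled by library size alone still hold the TMM factor, so their relation with the factor is partly built in. Whether the factor also carries their relation with the second component was not tested. The TMM factor gave r = 0.179 and rho = 0.068 over the 30 calves (p = 0.353 and 0.727, adjusted p = 0.506 and 0.793), with r = 0.119 without the 2 calves farthest in the factor. In HI calves alone r was 0.535 and rho 0.343 (p = 0.0422 and 0.21, adjusted p = 0.253 and 0.5, permutation test, n = 15), and r was 0.245 without 2 such calves. In MOD calves alone r was -0.093 and rho -0.168 (p = 0.743 and 0.551, adjusted p = 0.81 and 0.735, permutation test, n = 15), and r turned to 0.139 without 2 calves.

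The second principal component held 20.1% of the variance of the other genes and separated most calves by diet, with 14 of the 15 HI calves above 0 and 10 of the 15 MOD calves below it. HI calf 2570, the highest of its diet in ADIPOQ, was the HI calf below 0, at -6.67. MOD calf 1057, the lowest of its diet in ADIPOQ, had the highest MOD score, 25.7. The 4 other MOD calves with a score above 0, calves 2346, 991, 2551 and 1395, had ADIPOQ values of 13137, 10867, 10332 and 10621, all above the HI median. With diet means subtracted, r of ADIPOQ with this component was -0.364 and rho -0.225 over the 30 calves (p = 0.0686 and 0.25, adjusted p = 0.274 and 0.5, permutation test), and r was -0.183 without the 2 calves farthest on the component. In HI calves r was -0.565 and rho -0.389 (p = 0.0275 and 0.153, adjusted p = 0.253 and 0.5, permutation test, n = 15), and r was -0.114 without 2 such calves. In MOD calves r was -0.298 and rho -0.061 (p = 0.29 and 0.83, adjusted p = 0.498 and 0.83, permutation test, n = 15), and r turned to 0.091 without 2 such calves.

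**Figure D4:**
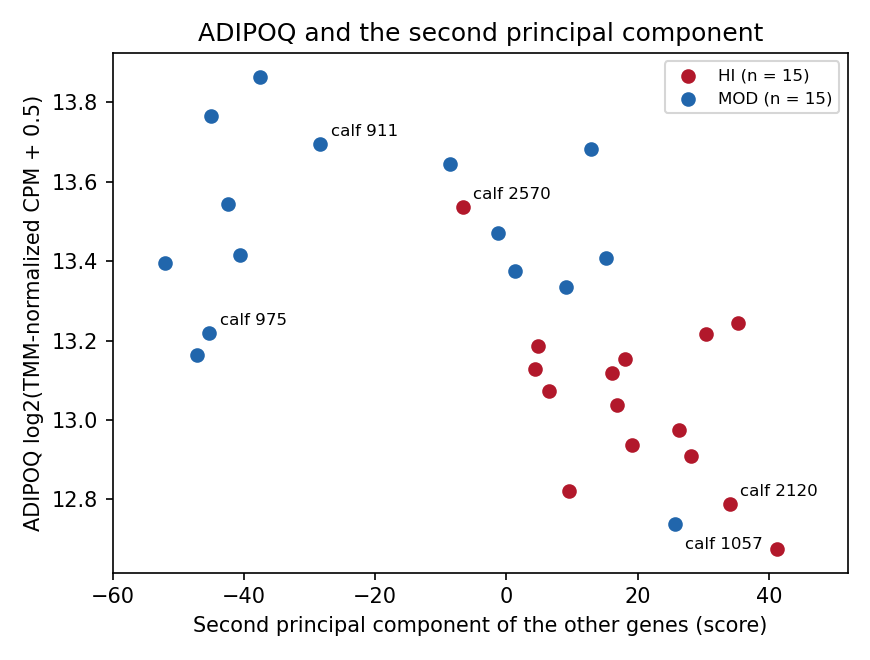
ADIPOQ as log2(TMM-normalized CPM + 0.5) against the second principal component score of the other genes, 1 point per calf. HI calf 2570 and MOD calf 1057 lie among the calves of the other diet on both axes, and calves 2120, 975 and 911, apart on the first component, do not stand apart in ADIPOQ.

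The genes whose pattern over calves was most like that of ADIPOQ were looked for among 8762 genes with a mean value of at least 10, by Pearson's r of log2(value + 0.5). They were chosen as the highest of many, and no test is given. With diet means subtracted the most alike was ENSBTAG00000010726, with r = 0.694 and rho = 0.443 over the 30 calves, and r fell to 0.382 without the 2 calves farthest in ADIPOQ. Its mean value was 103 in HI and 85.0 in MOD calves, higher in HI (log2 fold change 0.28, standard error 0.07, adjusted p = 0.011, limma), opposite in sign to ADIPOQ. The next was ENSBTAG00000009513, with r = 0.648 and rho = 0.574, and means of 111 in HI and 120.0 in MOD calves (log2 fold change -0.09, standard error 0.15, adjusted p = 0.747, limma). No gene reached r = 0.7 in either sign within the diets, and 44 had r above 0.5.

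With diet differences left in, the most alike was ENSBTAG00000016091, at r = 0.797 and rho = 0.805 over the 30 calves, and r was 0.677 within HI and 0.624 within MOD calves. It was lower in HI, with a mean value of 88.8 against 246 (log2 fold change -1.52, standard error 0.25, adjusted p = 9.90e-05, limma). It also stood at place 5 of the list within diets. ENSBTAG00000011412 followed at r = 0.774 and rho = 0.794, with means of 781 and 1384 (log2 fold change -0.81, standard error 0.15, adjusted p = 0.00041, limma). Both changes were larger in size than that of ADIPOQ, a difference that was not tested. Their direction is partly fixed by the choice on r with diet differences left in. The deposited table lists genes by identifier only, and no table used here pairs these with names.

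ADIPOQ has 1 entry, with 2 transcript models, in the RefSeq annotation of the later ARS-UCD2.0 assembly, and no other gene entry overlaps it there. Its nearest protein-coding neighbours in that order are LOC132345653 and then ST6GAL1, a sialyltransferase, on one side, and RFC4, a subunit of the replication clamp loader, and then EIF4A2, a translation initiation helicase, on the other. The levels of these neighbours, of the adiponectin receptors and of other adipocyte genes were not analysed here, because the identifiers are not paired with names. The label of the tissue was for the same reason not checked against markers other than this row.

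**Figure D5:**
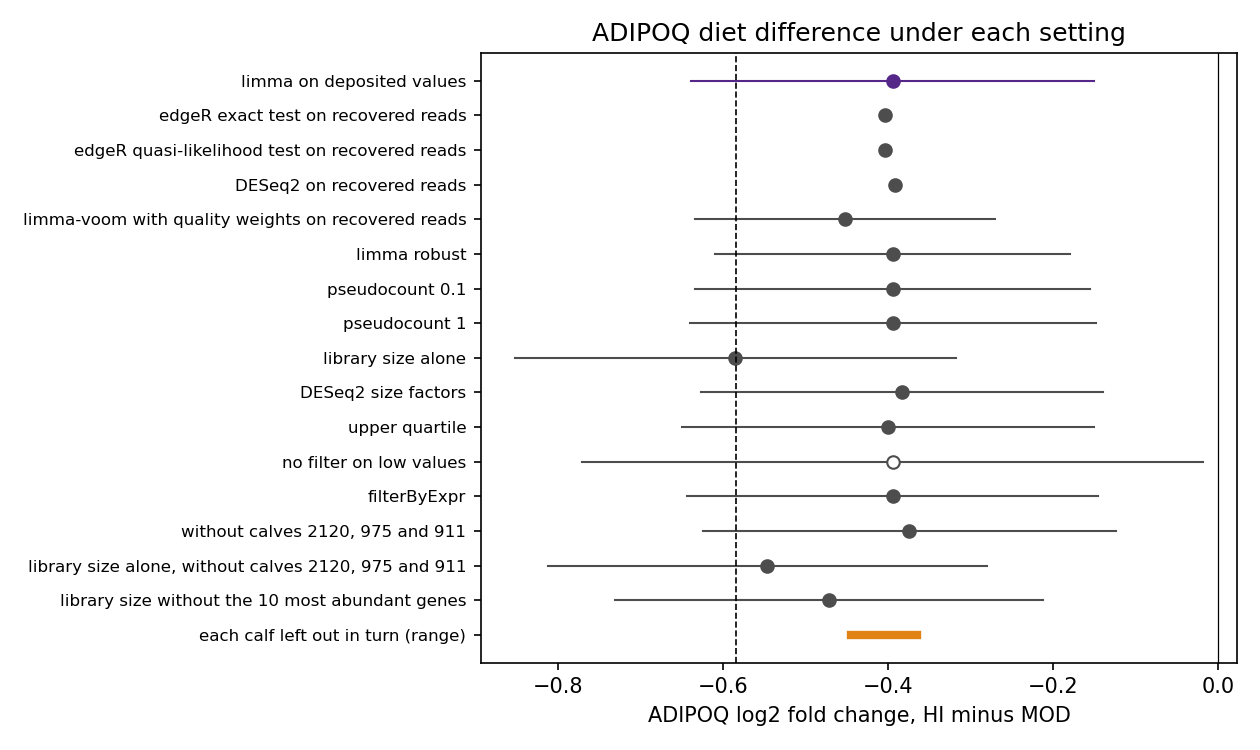
Log2 fold change (HI minus MOD) of ADIPOQ under each test, scaling, filter and set of calves, with 95% intervals where limma gives them. Filled points have an adjusted p under 0.05, the dashed line marks a fold change of 1.5, and the bar at the foot is the range with each calf left out in turn. Every point is below 0, from -0.59 to -0.37, and the open point is the fit with no filter on low values.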

How the data were processed

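The authors trimmed reads with cutadapt, aligned them to UMD3.1 with STAR, quantified each gene and applied TMM normalization in edgeR. The submitters' notes list cutadapt 2.6, STAR 2.6.1 and edgeR 3.5, where the paper states a different version of each. The deposited values are a signal, reads per 1000000 of the effective library size. All values above 0 came out as whole reads within 0.01 of a read, which gave the reads counted on genes (11847883 to 19383275 per calf). These are not the reads sequenced, of which the paper reports a larger average per sample.

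The log2(value + 0.5) of genes whose value exceeded 1 in 15 or more libraries was fitted in limma 3.58.1 (under R 4.3.3), with a variance trend. A gene was called at an adjusted p under 0.05 and a fold change above 1.5. The exact and quasi-likelihood tests of edgeR 4.0.16, DESeq2 1.42.0 and limma-voom were run on the recovered reads. Limma and the edgeR tests were tried on simulated data. Single measures were compared by permutation of calves (100000 resamples, smallest p 1e-05).

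ADIPOQ (by identifier) and the lists were chosen with earlier results of these data known. The named genes were ADIPOQ, the genes most like it over calves (2 of 5 printed per measure) and its neighbours. The planned lists of receptors, adipokines and cell type markers, and the ratio to adipocyte markers, were not run, since they need gene names.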

Additional observations from a re-analysis of the deposited data

How the results depend on the processing

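ADIPOQ was lower in HI under every setting run. Over the 30 fits that left out 1 calf, its log2 fold change ran from -0.45 to -0.36, its fold from 1.29 to 1.36, its difference in log2 level from -0.45 to -0.36, in share from -0.438 to -0.372 percentage points and in log2 rank from 1.43 to 1.66, all past their p thresholds, while the log2 ratio of the spreads ran from -0.69 to 0.047 (without MOD calf 1057). The genes called ran from 721 to 984, with 471 to 639 higher and 246 to 349 lower. With no filter on low values the log2 fold change was -0.39 but the adjusted p 0.198 (limma, against 0.00036 to 0.045 under the other settings). That fit tested 19170 genes, and its variance trend gave an SD of 1.51 at the level of ADIPOQ in place of 0.673, beside the gene's own 0.249. Library size alone gave 1.50-fold, with 779 genes lower and 351 higher, and a log2 ratio of the spreads of 0.17. The same scaling without calves 2120, 975 and 911 gave 1.46-fold, under the threshold, with 670 lower and 356 higher. Leaving out the fold threshold gave 1790 genes (932 higher, 858 lower), and an adjusted p under 0.01 gave 504 (331 and 173). With library size alone, r of ADIPOQ with the TMM factor was 0.620 over both diets and 0.848 in HI calves, and with the second component -0.578 and -0.762, all 4 now with an adjusted p under 0.05. It was 0.364 with the factor and 0.093 with reads counted in MOD calves, turned in sign. Values divided by the library total still hold the TMM factor, so the relation with the factor is partly built in. Whether this extends to the relation with the second component was not tested. Without the 3 calves, r with the first component was 0.089 in MOD. What made these values move with the setting was not tested. The combination of library size with the 3 calves, library size without the 10 most abundant genes (log2 fold change -0.47) and the principal components were chosen after seeing the data. The ranks per transcript length, the marker ratio and the gene lists were not run, as they need gene lengths or names. No paired analysis was possible because the labels do not give each calf's block. The counting error of ADIPOQ in a library was at most 0.330% of its value, and no other depth was tried.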

Other observations

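Among the 8762 genes with a mean value of at least 10, 57 had a within-diet r with ADIPOQ below -0.5 and 44 had one above 0.5, the lowest r being -0.631. These are values over 30 calves with no test, and what the genes are was not analysed here.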
